A study of Homo sapiens with 9 samples.

Results

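The 10 Notch pathway genes described here were followed across the series: the receptors NOTCH1, NOTCH2 and NOTCH3, the ligands JAG1, JAG2 and DLL1, the ligand ubiquitin ligase NEURL1, and the target genes HES1, HEY1 and NRARP. They were taken by gene name from the deposited gene table, and all 10 were found among its 36785 genes. The table came from poly(A)-selected RNA sequencing of SKOV3 cells, a human line established from ovarian cancer. The 9 libraries fell into 3 groups of 3, and every group had been transduced with lentivirus. The control group was shNC, with the genotype NC, and the other groups were sh1, with the genotype STXBP6 knockdown_1, and sh3, with the genotype STXBP6 knockdown_3. STXBP6 encodes amisyn, a syntaxin-binding protein. Separate cultures are not named in the labels, and the p-values therefore measure only how far these libraries spread, which may be technical.

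Notch is a receptor that a ligand on a neighbouring cell activates. Ubiquitin ligases such as NEURL1 and MIB1 act on the ligand in the signalling cell and drive its endocytosis, and the bound receptor is then cut by ADAM proteases and by gamma-secretase. The released intracellular domain enters the nucleus, binds the DNA-binding protein RBPJ together with a Mastermind coactivator, and switches on genes such as HES1 and HEY1, which encode transcriptional repressors, and NRARP, which encodes a feedback inhibitor. JAG1 and NOTCH3 are among the pathway genes often studied in ovarian cancer.

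The promoter of HES1, the textbook Notch target, is shown because HES1 was the member with the largest rise in these libraries. Capitals mark TGGGAA, the core of the RBPJ site. The stretch is chr3:194135898-194136147 on the plus strand of GRCh38.p14, the 250 bases before the RefSeq start of the gene.
HES1: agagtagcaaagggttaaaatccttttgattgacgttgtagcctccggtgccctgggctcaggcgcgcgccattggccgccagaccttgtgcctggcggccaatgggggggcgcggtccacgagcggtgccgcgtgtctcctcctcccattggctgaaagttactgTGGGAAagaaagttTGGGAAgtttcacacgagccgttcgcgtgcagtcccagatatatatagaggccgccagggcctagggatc
The HES1 stretch held 2 copies of TGGGAA, beginning 84 and 70 bases before the start, on the same strand and with 8 bases between them. Only exact copies are marked, so a site that departs from TGGGAA would not show. HES4, which had the largest called rise among the other pathway genes, is shown by the 30 bases around its only match, chr1:1000156-1000185 on the minus strand. The match began 76 bases before the RefSeq start. The gene's span in the deposited gene table, 998962 to 1000172, reaches into this stretch.
HES4: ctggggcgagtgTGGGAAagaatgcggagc
NEURL1, the member with the largest fall, is shown by chr10:103493455-103493704 on the plus strand, where 1 match lay 138 bases before the start.
NEURL1: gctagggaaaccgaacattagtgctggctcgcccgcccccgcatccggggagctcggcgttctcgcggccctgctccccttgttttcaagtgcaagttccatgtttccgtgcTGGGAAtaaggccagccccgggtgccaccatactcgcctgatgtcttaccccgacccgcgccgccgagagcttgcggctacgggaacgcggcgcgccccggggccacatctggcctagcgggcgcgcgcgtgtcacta
Windows were read from the RefSeq promoter table for 8 of the 10 members. Those of DLL1 and HEY1 were not read, so the member counts of motifs leave out both genes, and their promoters were not tested. Both genes were called lower with sh1, and of the members that fell only NEURL1 is in the counts. The counts therefore cannot show whether the motifs differ between members that rose and members that fell. On both strands TGGGAA was present in 2 of these 8 windows, those of HES1 and NEURL1, and in 20.8% of all 35116 windows of 250 bases. A window with at least 2 copies was found for 1 of the 8 and for 2.90% of all. The longer core GTGGGAA, which contains TGGGAA, was present in 1 of the 8, HES1, and in 5.43% of all windows. Outside the members it was also present in the windows of HES4, HEYL and HEY2, and not in those of HES2, HES6 and HES7. The N box CACNAG, a site of HES proteins, was present in 2 of the 8, HES1 and NOTCH3, and in 32.0% of all windows. HES1 held 3 copies, and 6.32% of all windows held at least 2. These matches describe letters in a window and were not tested for binding.

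The libraries held 57654447 to 69264400 counts each, and 21296 genes passed the filter on low counts, all 10 members included. STXBP6 itself was near the limit of detection in all groups, with 0 to 15 counts in shNC, 4 to 26 in sh1 and 18 to 31 in sh3, and the targeted gene thus gave no check on the labels. Of 8 markers of an ovarian epithelial cancer cell, 7 had a mean of at least 1 FPKM (fragment counts scaled by gene length and library size), and MUC16 did not. Their sum, most of it ERBB2, was 1094 to 1195 FPKM in shNC, 705 to 734 in sh1 and 1113 to 1161 in sh3. Among the markers of other cells, PTPRC of leukocytes was at 0 in 8 libraries, and PECAM1, CDH5, VWF and TEK of endothelial cells were under 1 FPKM. ERG, also on the endothelial list, was at 1.195 to 1.408 FPKM in shNC, 0.607 to 0.745 in sh1 and 1.246 to 1.301 in sh3. The summed endothelial list was 23.7 to 25.4 FPKM in shNC, 4.23 to 5.02 in sh1 and 18.4 to 20.4 in sh3, and most of it was PLVAP. The summed hepatocyte list was 0.703 to 0.832 FPKM in shNC, 2.60 to 2.88 in sh1, where most of it was SERPINA1, and 2.95 to 6.45 in sh3, where ALB led. The sum for fibroblasts and pericytes was 15.1 to 18.7, 17.8 to 18.6 and 12.1 to 12.5 FPKM in shNC, sh1 and sh3, and that for leukocytes, mostly CD68, was 13.7 to 15.0, 10.4 to 11.3 and 17.6 to 18.7. COL1A1 and LUM made up most of the fibroblast and pericyte sum. The part of these differences in the results on Notch genes was not tested. In bulk RNA, fewer cells with a transcript and less transcript per cell cannot be told apart.

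HES1 and JAG1 rose and NEURL1 fell with both hairpins, with NOTCH1 rising by a smaller amount. The other calls were made with sh1 only, where JAG2 and NRARP rose and HEY1 and DLL1 fell. A gene was called at an adjusted p under 0.05 in edgeR's quasi-likelihood test, adjusted over all 21296 genes. In sh1 against shNC 8 of the 10 members were called, 5 higher and 3 lower, against 38.7% of all genes called, 19.9% higher and 18.8% lower. In sh3 against shNC 4 members were called, 3 higher and 1 lower, against 26.9% of all genes, 14.4% higher and 12.4% lower. The values of the groups did not overlap for 7 members with sh1 and 6 with sh3, while this held for 49.9% and 40.5% of all genes. The median log2 fold change of the members was 0.10 with sh1 and 0.10 with sh3, and that of all genes was -0.02 and -0.01. Both comparisons use the same 3 shNC libraries. The members, and the pathway lists below, were chosen with earlier results of these data known. Their shares beside all genes are thus descriptive and do not measure enrichment.

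**Figure D1:**
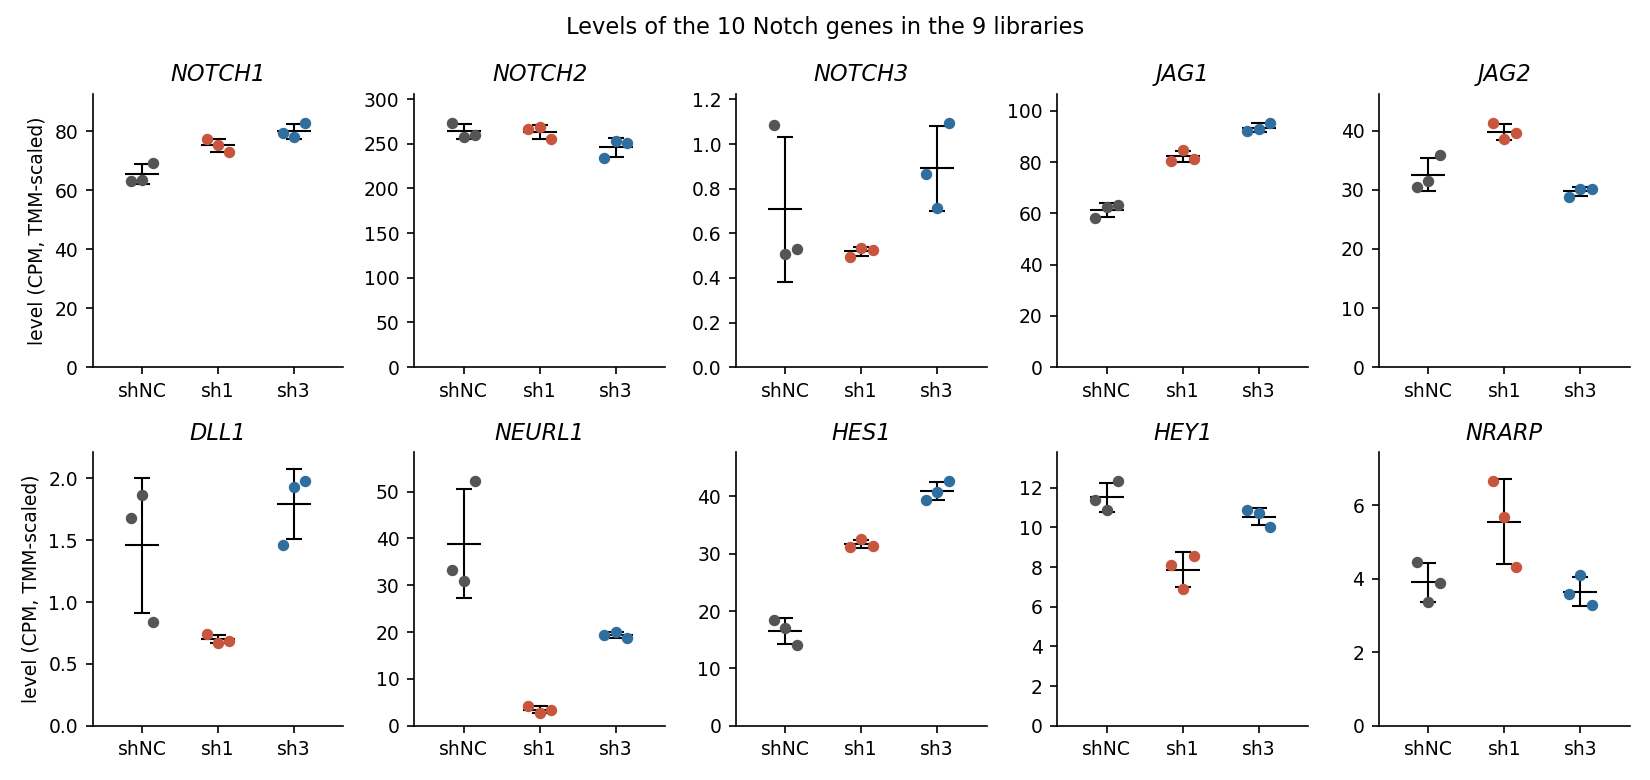
Level of each of the 10 genes as counts scaled to library size (CPM, vertical axis from 0) in the 3 libraries of shNC, sh1 and sh3; points are libraries, the bar is the group mean and the whiskers are 1 SD. HES1 and JAG1 stand above shNC in all 6 hairpin libraries, and NEURL1 stands below it, lowest in sh1.

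To set genes side by side, levels were read per length, in FPKM. In shNC the order ran from NOTCH2 at 14.6 ± 0.510 FPKM through HES1 at 7.42 ± 1.04, NEURL1 at 6.87 ± 2.04, JAG1 at 6.10 ± 0.251, NOTCH1 at 4.83 ± 0.239 and JAG2 at 4.71 ± 0.399 to HEY1 at 1.94 ± 0.119 and NRARP at 1.37 ± 0.193 (SD, n = 3). DLL1 and NOTCH3 closed the order at 0.351 ± 0.134 and 0.0681 ± 0.0317 FPKM. The library values of HES1 overlapped with those of NEURL1, those of NEURL1 with JAG1, and those of NOTCH1 with JAG2, so these neighbours could not be ordered. In sh1 HES1, at 14.0 ± 0.335 FPKM, overlapped with NOTCH2 at 14.3 ± 0.503, and NEURL1, at 0.586 ± 0.141, stood below HEY1 and NRARP. In sh3 HES1 was the highest member, at 18.4 ± 0.867 FPKM, above NOTCH2 at 13.6 ± 0.660 with no overlap.

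**Figure D2:**
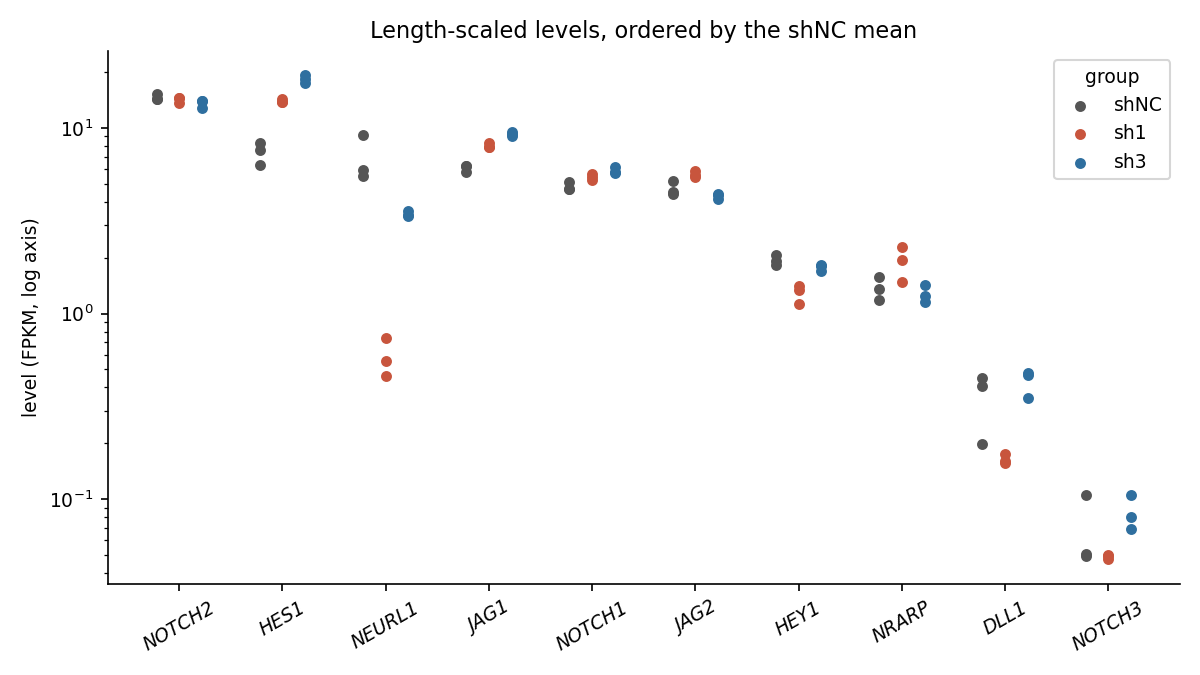
FPKM of the 10 genes in each library (points, log axis), ordered by the shNC mean and coloured by group. In shNC levels run from NOTCH2, at a mean of 14.6 FPKM, down to NOTCH3, at 0.0681 FPKM; NEURL1 is the gene that moves furthest between groups.

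NOTCH2 was the main receptor transcript. It made up 74.8% ± 1.27 of the summed FPKM of NOTCH1 to NOTCH4 (SD, n = 3) in shNC, 72.0% ± 0.424 in sh1 and 69.1% ± 1.19 in sh3. Nearly all of the rest was NOTCH1, at 24.8% ± 1.32, 27.4% ± 0.429 and 30.1% ± 0.997. The summed receptor level was 19.5 ± 0.474 FPKM in shNC, 19.8 ± 0.670 in sh1 and 19.7 ± 0.762 in sh3, ranges that overlap within 1 SD.

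NOTCH1 (ENSG00000148400, GRCh38 chromosome 9, 136494433 to 136546048, minus strand) was at 63.3, 63.5 and 69.4 CPM in the shNC libraries, 77.5, 75.2 and 72.9 in sh1 and 79.3, 77.9 and 82.9 in sh3. All 6 hairpin libraries were above all 3 shNC libraries. The rise was 1.15-fold with sh1 (log2 0.20 ± 0.05, SE, adjusted p = 0.0038) and 1.22-fold with sh3 (log2 0.29 ± 0.05, adjusted p = 5.4e-04). The hairpins did not pass the test against each other (log2 0.09, 95% interval -0.02 to 0.20).

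NOTCH2 (ENSG00000134250, chromosome 1, 119911553 to 120069662, minus strand) was at 273, 257 and 260 CPM in shNC, 266, 269 and 255 in sh1 and 234, 253 and 250 in sh3. The sh1 values overlapped with the shNC values, with 1 sh1 library below the lowest shNC library, and all 3 sh3 values lay just below the shNC values. NOTCH2 was not called with sh1 (log2 -0.0017, 95% interval -0.09 to 0.09). With sh3 the log2 fold change was -0.10 (95% interval -0.19 to -0.01, adjusted p = 0.069), a value that passed under DESeq2 (adjusted p = 0.042) and under library totals (adjusted p = 0.031), within a range of 0.031 to 0.28 over the alternatives. Shorter copies of its 5′ part, the NOTCH2NL genes, lie on the same chromosome. NOTCH2NLA, NOTCH2NLB, NOTCH2NLC and NOTCH2NLR had means of 6.38, 2.79, 5.08 and 0.932 CPM in shNC, and how reads were shared among these near-identical copies is uncertain. In edgeR's quasi-likelihood test 0 of the 4 were called with either hairpin, and 0 had an unadjusted p under 0.05. The smallest adjusted p was 0.16 with sh1, for NOTCH2NLA, and 0.19 with sh3, for NOTCH2NLB.

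NOTCH3 (ENSG00000074181, chromosome 19, 15159038 to 15200995, minus strand) was barely transcribed, with 30 to 73 counts per library. Its levels were 1.08, 0.507 and 0.530 CPM in shNC, 0.494, 0.535 and 0.527 in sh1 and 0.864, 0.715 and 1.10 in sh3. One shNC library was nearly as high as the highest sh3 library, and no contrast was called. The 95% intervals ran from -1.30 to 0.41 with sh1 and from -0.51 to 1.17 with sh3 on the log2 scale. Changes within those intervals remain compatible with these counts. NOTCH4 was at 0 to 0.447 CPM in shNC, 0.560 to 0.893 in sh1 and 0.532 to 1.03 in sh3, and it was not called (adjusted p = 0.21 and 0.16).

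Among ligands JAG1 rose with both hairpins and JAG2 rose with sh1. The summed FPKM of JAG1, JAG2, DLL1, DLL3 and DLL4 was 11.6 ± 0.495 (SD, n = 3) in shNC, 14.3 ± 0.181 in sh1 and 14.4 ± 0.502 in sh3. JAG1 made up 52.7% ± 0.615 of it in shNC, 55.9% ± 1.30 in sh1 and 64.5% ± 0.826 in sh3. The share of JAG2 was 40.7% ± 2.01, 39.4% ± 1.42 and 29.8% ± 0.255.

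JAG1 (ENSG00000101384, chromosome 20, 10637684 to 10673999, minus strand), which encodes the ligand Jagged1, was at 58.2, 62.3 and 63.2 CPM in shNC, 80.4, 84.7 and 81.4 in sh1 and 92.0, 93.0 and 95.3 in sh3. The 3 groups did not overlap. JAG1 rose 1.34-fold with sh1 (log2 0.42 ± 0.04, SE, adjusted p = 5.7e-06) and 1.53-fold with sh3 (log2 0.61 ± 0.04, adjusted p = 8.0e-07). It was higher in sh3 than in sh1 (log2 0.19 ± 0.04, adjusted p = 0.0050).

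JAG2 (ENSG00000184916, chromosome 14, 105140982 to 105168824, minus strand), the gene of the second Jagged ligand, was at 30.5, 31.4 and 35.8 CPM in shNC, 41.3, 38.6 and 39.5 in sh1 and 28.8, 30.1 and 30.2 in sh3. All sh1 values were above shNC and all sh3 values were below it. The rise of 1.22-fold with sh1 passed the test (log2 0.29 ± 0.06, SE, adjusted p = 0.0027), while the sh3 value did not (log2 -0.13, 95% interval -0.29 to 0.02, adjusted p = 0.15). JAG2 was lower in sh3 than in sh1 (log2 -0.42 ± 0.06, adjusted p = 4.2e-04).

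DLL1 (ENSG00000198719, chromosome 6, 170282206 to 170306565, minus strand), a Delta-like ligand, was a low transcript with 39 to 125 counts per library. It was at 1.68, 1.86 and 0.838 CPM in shNC, 0.741, 0.673 and 0.688 in sh1 and 1.46, 1.93 and 1.98 in sh3. The sh1 libraries were the 3 lowest of the 9, and 1 shNC library lay close to them. DLL1 was 2.08-fold lower with sh1 (log2 -1.06 ± 0.29, SE, adjusted p = 0.013). The call was lost without shNC replicate 2 (log2 -0.84, adjusted p = 0.059) and with limma on log2(FPKM + 1) without a filter (log2 -0.21, adjusted p = 0.11), within a range of 7.2e-04 to 0.11 over the alternatives. With sh3 it was not called (log2 0.29, 95% interval -0.40 to 0.98), and sh3 stood above sh1 (log2 1.35 ± 0.29, adjusted p = 0.0052). The gene overlaps FAM120B on the opposite strand, which averaged 2791 counts against 83.9 for DLL1 and was also lower with sh1 (log2 -0.24, adjusted p = 7.6e-04). The use of strand in counting is not stated in the sources used here, and the DLL1 counts are uncertain for that reason.

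NEURL1 (ENSG00000107954, chromosome 10, 103493705 to 103592546, plus strand) encodes a ubiquitin ligase of the Neuralized family that acts on Notch ligands. It was at 33.3, 31.0 and 52.2 CPM in shNC, 4.25, 2.69 and 3.25 in sh1 and 19.3, 20.1 and 18.8 in sh3. The groups did not overlap, and shNC replicate 3 stood above the other shNC libraries. NEURL1 was 11.4-fold lower with sh1 (log2 -3.51 ± 0.21, SE, adjusted p = 1.2e-07) and 2.00-fold lower with sh3 (log2 -1.0002 ± 0.18, adjusted p = 0.0016). Leaving out shNC replicate 3 gave the smallest of the sh3 values without 1 library, log2 -0.73, which was still called. The sh3 libraries were 5.70-fold above the sh1 libraries (log2 2.51 ± 0.20, adjusted p = 4.7e-06). By absolute log2 change NEURL1 ranked 105 of 21296 genes with sh1 and 1670 with sh3.

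**Figure D3:**
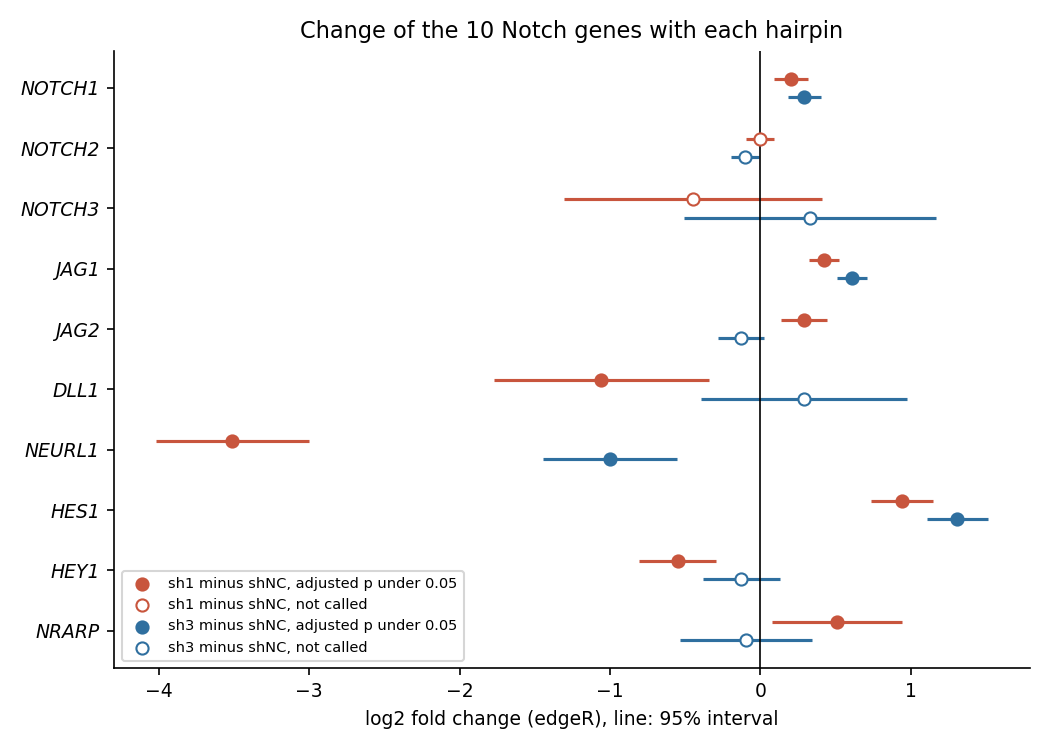
Log2 fold change of each of the 10 genes against shNC (horizontal axis) with sh1 and sh3; lines are unadjusted 95% intervals and filled points passed the adjusted p. NEURL1 lies at -3.51 and -1.0002 and HES1 at 0.94 and 1.31, while NOTCH2 lies near 0 with both.

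HES1 (ENSG00000114315, chromosome 3, 194136148 to 194138732, plus strand), the basic helix-loop-helix repressor whose promoter opens the account, was at 18.5, 17.0 and 14.1 CPM in shNC, 31.2, 32.6 and 31.4 in sh1 and 39.4, 40.8 and 42.6 in sh3. The 3 groups were separate, with sh3 the highest. The rise was 1.92-fold with sh1 (log2 0.94 ± 0.08, SE, adjusted p = 3.3e-06) and 2.48-fold with sh3 (log2 1.31 ± 0.08, adjusted p = 6.1e-07). The libraries of sh3 also stood above those of sh1 (log2 0.37 ± 0.08, adjusted p = 0.0059). All 3 HES1 calls were kept under all 16 alternatives.

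HEY1 (ENSG00000164683, chromosome 8, 79762371 to 79767857, minus strand), a repressor of the related Hairy/E(spl) with YRPW family, moved the other way. It was at 11.4, 10.9 and 12.3 CPM in shNC, 8.12, 6.88 and 8.58 in sh1 and 10.9, 10.7 and 10.1 in sh3. The sh1 values were the 3 lowest, and the sh3 values overlapped with shNC. HEY1 was 1.47-fold lower with sh1 (log2 -0.55 ± 0.11, SE, adjusted p = 0.0013), was not called with sh3 (log2 -0.13, 95% interval -0.38 to 0.13) and was higher in sh3 than in sh1 (log2 0.42 ± 0.11, adjusted p = 0.011).

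NRARP (ENSG00000198435, chromosome 9, 137299631 to 137302271, minus strand), the ankyrin-repeat feedback inhibitor of the Notch intracellular domain, was at 4.45, 3.37 and 3.88 CPM in shNC, 6.66, 5.68 and 4.34 in sh1 and 3.59, 4.09 and 3.28 in sh3. The lowest sh1 library lay within the shNC range. The rise of 1.42-fold with sh1 was at the edge of the threshold (log2 0.51 ± 0.18, SE, adjusted p = 0.040) and failed it in 10 of 16 alternatives (adjusted p 0.011 to 0.18). The call ended without shNC replicate 2 (adjusted p = 0.14), shNC replicate 3 (0.082), sh1 replicate 1 (0.18), sh1 replicate 2 (0.095) or sh3 replicate 1 (0.054). With sh3 it was not called (log2 -0.09, 95% interval -0.53 to 0.34), and the lower level in sh3 than in sh1 (log2 -0.60 ± 0.18, adjusted p = 0.027) failed in 8 of 16 alternatives (adjusted p 0.0081 to 0.12), including those without sh1 replicate 1 (0.12), sh1 replicate 2 (0.075), sh3 replicate 1 (0.078) and sh3 replicate 3 (0.099).

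In the direct comparison of the hairpins, 7 of the 10 members were called, 5 higher and 2 lower in sh3, against 25.9% of all genes, 12.9% higher and 13.0% lower. The values of sh1 and sh3 did not overlap for any of the 10 members, as for 41.8% of all genes. JAG1, DLL1, NEURL1, HES1 and HEY1 were higher in sh3 and JAG2 and NRARP were lower, while NOTCH1, NOTCH2 and NOTCH3 were not called.

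The HES and HEY genes were called in both directions. Of 8 tested, HES1, HES2, HES4, HES6, HES7, HEY1, HEY2 and HEYL, 4 rose and 2 fell with sh1 and 3 rose and 1 fell with sh3, beside 38.7% and 26.9% of all genes called. HES4 was at 2.70, 2.61 and 2.22 CPM in shNC, 8.45, 9.90 and 8.48 in sh1 and 4.32, 5.27 and 4.90 in sh3, a rise of 3.56-fold and 1.92-fold (log2 1.83 and 0.94, adjusted p = 8.5e-07 and 3.2e-04). HEYL was at 1.22, 1.97 and 1.28 CPM in shNC and 3.34, 4.43 and 4.78 in sh1, a rise of log2 1.49 (adjusted p = 1.8e-04), and at 1.68 to 1.98 CPM in sh3, where it was not called (log2 0.29, adjusted p = 0.39). HES2 fell, from 23.6, 23.1 and 21.9 CPM in shNC to 11.7, 11.1 and 11.4 in sh1 and 17.0, 16.6 and 16.1 in sh3 (log2 -1.003 and -0.47, adjusted p = 3.1e-07 and 2.6e-04). HES6 rose with sh1 (log2 0.66, adjusted p = 2.4e-04) and was not called with sh3 (log2 0.15), and HEY2 passed with sh3 (log2 0.67, adjusted p = 0.045) and not with sh1 (log2 0.50, adjusted p = 0.10). HES7, at 0 to 28 counts in a library, was not called with sh1 or sh3 (adjusted p = 0.96 and 0.79). Its log2 SE of 1.19 and 1.20 left little room for a call. HES4 and HEYL were higher in sh1 than in sh3, opposite to HES1 (sh3 minus sh1 log2 -0.89 and -1.20, adjusted p = 4.6e-04 and 0.0016).

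**Figure D4:**
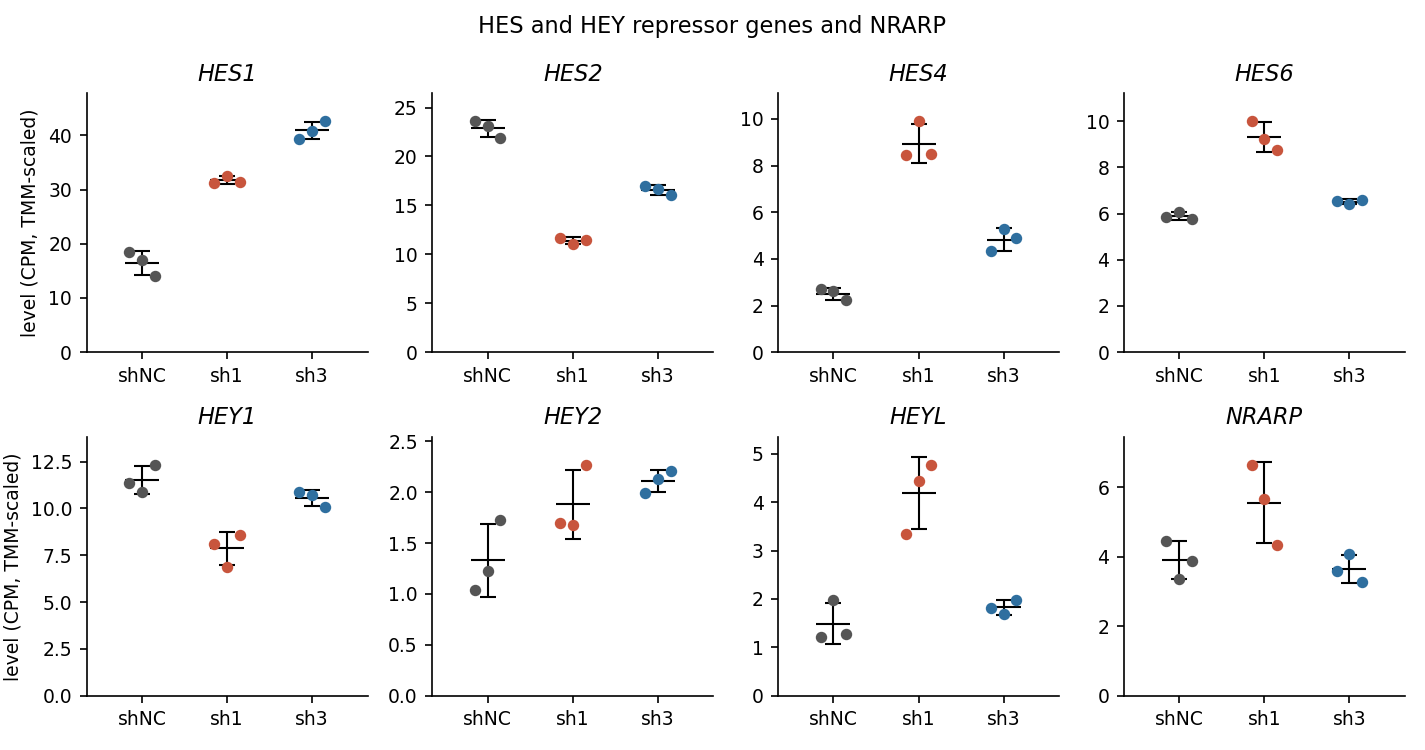
CPM of 7 HES and HEY genes and NRARP in each library (points), with group mean and 1 SD; each vertical axis starts at 0. HES1 is highest in sh3, HES4, HES6 and HEYL are highest in sh1, and HES2 and HEY1 are lowest in sh1.

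Beyond the 10 members, 62 further genes of the pathway were listed by role, of which 60 were in the table and all 60 were tested. With sh1 15 rose and 16 fell, 51.7% of the 60 beside 38.7% of all genes, and the median log2 fold change was -0.01. With sh3 15 rose and 13 fell, 46.7% beside 26.9% of all genes, with a median of 0.06. The list held calls in both directions with each hairpin. Of its 10 other targets, 3 rose and 2 fell with sh1 (50%) and 4 rose and 3 fell with sh3 (70%). Outside the HES and HEY family, CCND1 fell with both hairpins (log2 -0.17 and -0.16). With sh3 MYC rose (log2 0.17), CDKN1A fell (log2 -0.24) and SOX9 rose at the edge of the threshold (log2 0.68, adjusted p = 0.049 in edgeR). MYC, CDKN1A and SOX9 were not called with sh1.

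Among the other ligands, the noncanonical ligand gene DLK2 rose with sh1, from 4.42, 4.83 and 5.16 CPM to 8.29, 6.25 and 6.30 (log2 0.53, adjusted p = 0.012), and was not called with sh3 (log2 0.06). DLL3, at 1.01 CPM in all 3 shNC libraries, and DLL4, at 0.222 to 0.373 CPM, were not called. All 3 other ligand ubiquitin ligases were called with sh1, beside 38.7% of all genes, and the paralog of NEURL1 went opposite to it. NEURL1B rose from 5.36, 4.39 and 4.99 CPM in shNC to 8.34, 6.28 and 7.59 in sh1 and 8.29, 8.91 and 9.79 in sh3 (log2 0.59 and 0.87, adjusted p = 0.0042 and 5.3e-04). MIB1 and MIB2 fell slightly with sh1 (log2 -0.20 and -0.18, adjusted p = 6.4e-04 and 0.0091) and were not called with sh3. MIB1 was the most abundant of these ligases per length in shNC, at 12.1 FPKM.

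Of 5 glycosylation enzymes, which modify the extracellular repeats of the receptor, 2 rose and 2 fell with sh1 and 2 rose with sh3, beside 38.7% and 26.9% of all genes called. The fringe gene LFNG rose from 3.95, 3.64 and 3.80 CPM to 6.72, 6.68 and 6.77 in sh1 and 6.30, 6.88 and 6.19 in sh3 (log2 0.82 and 0.77, adjusted p = 8.1e-05 and 2.8e-04). POGLUT1, an O-glucosyltransferase, fell with sh1 (log2 -0.45, adjusted p = 0.0012), and the O-fucosyltransferase gene POFUT1 rose with both (log2 0.18 and 0.15, adjusted p = 0.0026 and 0.0095). Of 9 genes of receptor cleavage, 1 rose and 2 fell with sh1, which at 33.3% is near the share of all genes, and 2 rose and 3 fell with sh3, which is 55.6%. The metalloproteases ADAM10 and ADAM17, which make the cut at the cell surface, fell with both, ADAM10 at log2 -0.20 and -0.31 and ADAM17 at -0.30 and -0.23 (adjusted p at most 0.0017), and NCSTN, the nicastrin subunit of gamma-secretase, rose with sh1 (log2 0.27, adjusted p = 0.0012).

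In the nuclear complex 2 rose and 3 fell of 6 with sh1, and 1 rose and 2 fell with sh3, beside 38.7% and 26.9% of all genes called. RBPJ fell from 96.4 ± 4.17 CPM (SD, n = 3) to 75.8, 72.3 and 73.2 in sh1 and 80.5, 85.3 and 78.0 in sh3 (log2 -0.39 and -0.25, adjusted p = 2.5e-05 and 0.0013). The coactivator gene MAML2 fell with both (log2 -0.41 and -0.25, adjusted p = 5.8e-05 and 0.0040), and MAML3, near 2 CPM in shNC, fell with sh1 (log2 -0.90, adjusted p = 0.0035). Of 8 corepressors 2 rose and 3 fell with sh1 and 3 rose and 2 fell with sh3, which is 62.5% with each. L3MBTL3, which binds RBPJ as a repressor, fell from 30.3, 34.5 and 28.0 CPM to 17.8, 17.0 and 17.9 in sh1 and 24.8, 21.5 and 23.8 in sh3 (log2 -0.82 and -0.41, adjusted p = 8.4e-06 and 0.0028), TLE2 rose with both (log2 0.32 and 0.32, adjusted p = 0.0074 and 0.012) and TLE4 fell with sh1 (log2 -0.36, adjusted p = 0.034).

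Of 11 genes of endocytosis and turnover, 3 rose and 2 fell with sh1 and 2 rose and 3 fell with sh3. These 45.5% called with each hairpin stand beside 38.7% of all genes with sh1, a share near it, and 26.9% with sh3. The Deltex gene DTX2 rose (log2 0.42 and 0.52, adjusted p = 5.1e-04 and 2.3e-04) and DTX3L fell (log2 -0.40 and -0.45, adjusted p = 3.5e-05 and 2.9e-05). The ubiquitin ligase gene NEDD4 went in opposite directions with the hairpins, from 44.8, 45.5 and 49.8 CPM in shNC to 65.1, 64.5 and 62.7 in sh1 and 35.9, 37.4 and 40.0 in sh3 (log2 0.46 and -0.30, adjusted p = 2.9e-05 and 0.0013). The direct comparison of sh3 with sh1 was called as well (log2 -0.76, adjusted p = 1.5e-06).

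**Figure D5:**
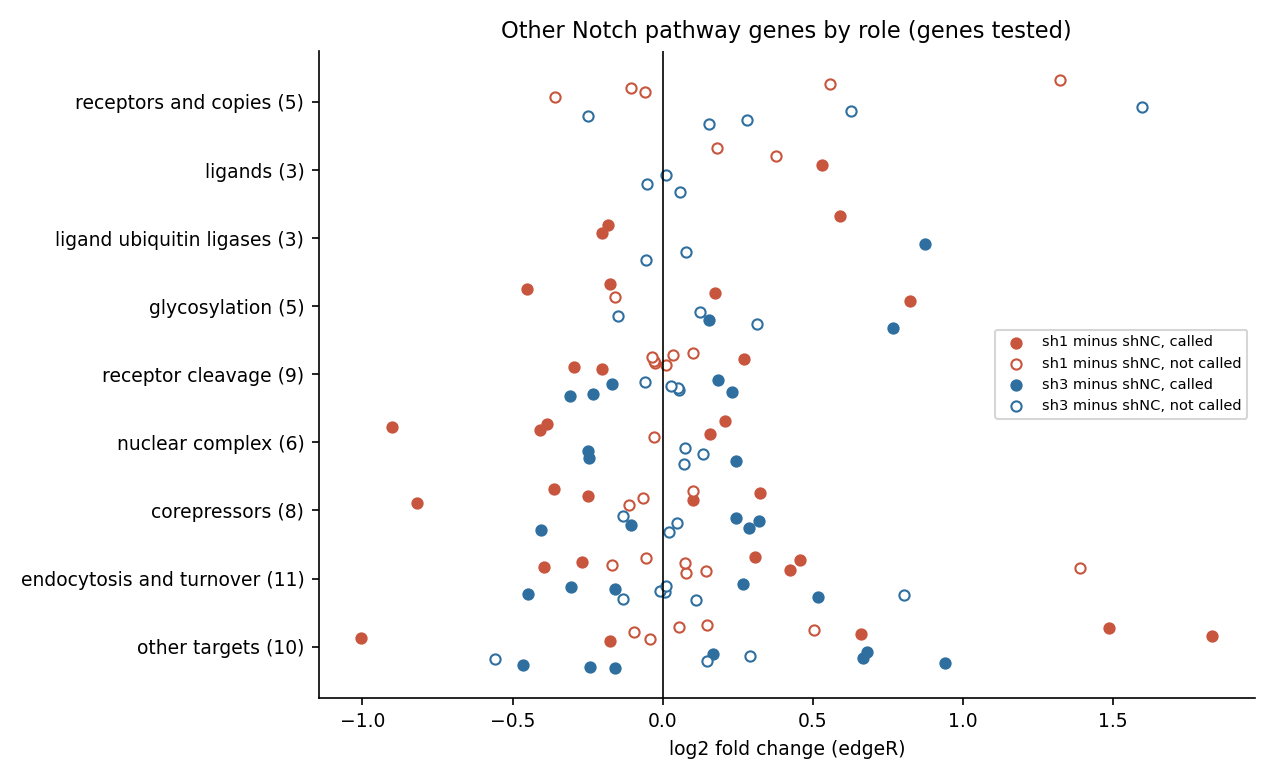
Log2 fold change against shNC of the 60 other pathway genes by role (rows, with the number tested), for sh1 and sh3; filled points passed an adjusted p under 0.05. Filled points lie on both sides of 0 in most roles, and the largest is HES4 at 1.83 with sh1.

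The genes most like the members with the largest change were found by Pearson's r of log2 CPM over the 9 libraries, among 11605 other genes with at least 1 FPKM in some group. For NEURL1 these were PLCD3 (r = 0.994), ANKRD10-IT1 (r = 0.992) and PTGIS (r = 0.992), with log2 changes of -1.40 and -0.44, -1.30 and -0.29, and -1.10 and -0.33 with sh1 and sh3. For HES1 they were BCAR1, CTSB and RRP9 (r = 0.993 each), with 0.18 and 0.25, 0.46 and 0.63, and 0.69 and 0.89. The 9 libraries form 3 groups and share their controls, so such an r mainly describes the order and spacing of the 3 group means.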

How the data were processed

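Per the labels' protocols, oligo(dT)-selected RNA with an integrity number above 7 was made into dUTP-marked libraries and sequenced in pairs. The submitters' processing notes name edgeR, DESeq2, StringTie 2.1.6, HISAT2 2.2.1, cutadapt 1.9 and the build GRCh38, without roles or an annotation. Raw counts per gene were deposited by the authors as whole numbers. The same table holds FPKM computed by the authors, per the file headers. Counts were fitted in edgeR 4.0.16 (R 4.3.3; filterByExpr, minimum count 10; TMM; glmQLFit, glmQLFTest) with 1 mean per group over 9 libraries and no block, two-sided, with Benjamini-Hochberg adjustment over all genes tested. CPM used TMM-scaled totals, and FPKM are the deposited values. The standard error is the absolute log2 change divided by the square root of F; 95% intervals use t with 6 degrees of freedom. The fit was also run on simulated counts that had the same spread setting for every gene, unlike the data. No result here rests on that run.

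The members and lists were chosen with earlier results of these data known. For the other pathway genes the rule named every receptor and ligand. In each role it also named up to 3 called genes with the largest change with either hairpin. HES6, HES7 and HEY2 were added, after their values were seen, to give each HES and HEY gene tested. MYC, CCND1, CDKN1A and SOX9 were added in the same way, as the rest of the other targets. FAM120B was added for its overlap with DLL1. Lists are described by counts and medians, without a set test. DLK1 and HES5 were not analysed here. No library was a copy of another, since chi-square over degrees of freedom was 8.51 to 17.3 within groups. Alternatives were DESeq2 1.42.0, library totals, no filter, the replicate block, limma 3.58.1 on log2(FPKM + 1) with and without the filter and on log2(FPKM + 0.1), and leaving out each library. Promoter sequences are RefSeq's, GRCh38.p14; motifs were searched on both strands.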

Additional observations from a re-analysis of the deposited data

Results flagged for a closer look

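The effects of the hairpins differed in the direct test of sh3 minus sh1 for 7 of the 10 members. The log2 differences were 0.19 for JAG1, -0.42 for JAG2, 1.35 for DLL1, 2.51 for NEURL1, 0.37 for HES1, 0.42 for HEY1 and -0.60 for NRARP (edgeR adjusted p at most 0.027, n = 3 libraries per group).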

How the results depend on the processing

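Over 16 alternatives, 22 of the 30 values of the members (10 genes in 3 contrasts) kept their direction and their side of the threshold in each. Over all alternatives the count of members called was 6 to 8 with sh1, 4 to 5 with sh3 and 6 to 8 between the hairpins, and the counts over all genes stayed within 1.5 times of those given (7195 to 8572, 4690 to 6229 and 4169 to 6003). The changes in call concerned NOTCH2, DLL1 and NRARP, as given beside them, and NOTCH2 between the hairpins, which passed under DESeq2 (log2 -0.10, adjusted p = 0.043, range 0.043 to 0.46). Values near 0 changed sign: NOTCH2 with sh1 was 0.00078 with DESeq2, 0.0041 without a filter and -0.017 to 0.028 without 1 library, NOTCH3 with sh1 was -0.64 to 0.0039 and NRARP with sh3 -0.19 to 0.015 without 1 library. On log2(FPKM + 1) the value of NEURL1 with sh1 was -2.28, since the pseudocount shrinks low levels. Same-numbered libraries showed no shared deviation from their group means, with correlations of -0.03 to 0.02. Of the 9 libraries, 1 correlated best with its own number. This check cannot tell whether same-numbered libraries were prepared together. With the replicate block 7951, 5446 and 5125 genes and 8, 4 and 7 members were called. NOTCH3 and DLL1, with at most 73 and 125 counts in a library, are the members whose precision depth limits most.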
